A study of Mus musculus with 2 samples.

Results

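The mitotic spindle, kinetochore and cytokinesis genes described here are the machinery that a cell uses to pass from G2 through mitosis and to divide. They were chosen by function as a list of 58 genes, at a time when earlier results of these data were known. The lists set beside them below were chosen with the same knowledge. Probe sets of a listed gene were taken where the platform annotation gave that gene alone. Of the 58 genes, 57 had such a probe set among the 18193 genes of the array, and the cyclin gene Ccnb1 had none and was not analysed. RNA from uterine stromal cells, isolated from C57BL/6 mice on pregnancy day 4, was hybridized to Affymetrix 3' expression arrays. The tested sample came from Msx1Msx2-null mice, in which floxed Msx1 and Msx2, a pair of homeobox transcription factor genes, had been ablated with PRcre, a Cre driven by the progesterone receptor gene, which is active in several uterine cell types besides stroma. The other sample came from floxed control mice. RNA of the mice of each genotype was pooled before hybridization, from 5 mice per genotype by the treatment protocol and 4 by the extraction protocol. There was thus 1 array per genotype, no spread between mice could be estimated, and no p-value is given anywhere.

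Entry into mitosis is driven by Cdk1 bound to B-type or A-type cyclins, and the Polo-like and Aurora kinases then build the spindle. Kinetochores, assembled on centromeric chromatin, attach the chromosomes to microtubules, and the spindle checkpoint holds back the anaphase-promoting complex until all are attached. Most of these genes are transcribed mainly late in the cell cycle, so that their RNA is commonly read as a measure of dividing cells in a tissue. In the pregnant mouse uterus, stromal cells divide before implantation under progesterone and estrogen while the luminal epithelium stops dividing.

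All 57 measured members had a higher signal in the null array than in the control array. In 56 of them both signals exceeded the floor, which is the median signal of an array without its Affymetrix control probe sets, 30.1 in the null and 31.0 in the control array. Their median log2 ratio, null minus control, was 0.76, or 1.70-fold, with quartiles at 0.51 and 0.90 and extremes at 0.14 for Cdc25b and 1.36 for Spc25. The median over the 11833 genes with at least 1 signal above the floor was 0.02, and 52.3% of them had a positive ratio. With no floor, 51.8% of the 18193 genes of the array had one. At least 1.5-fold higher were 40 of the 56 members, against 6.79% of all genes, and at least 2-fold higher were 9, against 1.59%. No member was 1.5-fold or 2-fold lower, against 6.92% and 1.80% of all genes. Kif15 did not reach the floor of either array, at 5.09 in the null and 2.62 in the control array, and gives no usable ratio. In bulk RNA a larger share of dividing cells and more of these transcripts per dividing cell cannot be told apart.

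**Figure D1:**
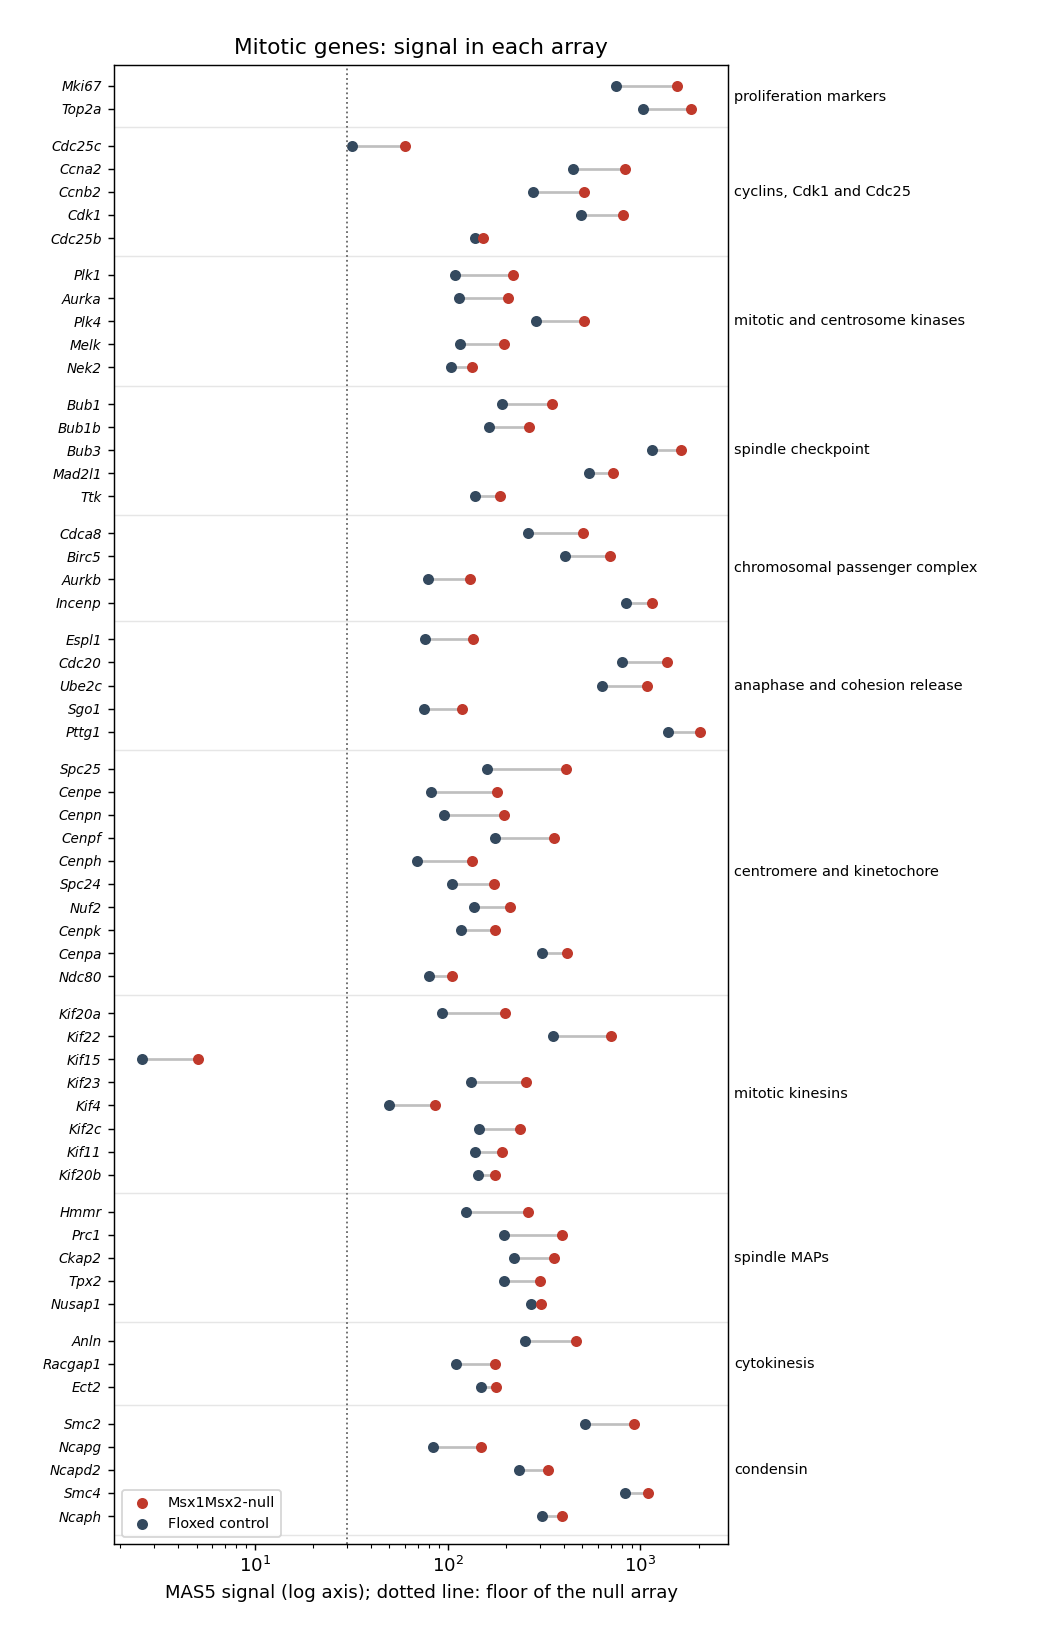
MAS5 signal (x axis, log scale) of each of the 57 measured members in the Msx1Msx2-null array (red) and the floxed control array (dark blue), 1 probe set per gene, grouped by role and ordered by ratio within a role. The red point lies to the right of the blue one in all 57 rows, and Kif15 alone lies left of the dotted floor.

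Msx1 and Msx2, the targeted genes, were both under the floor in the null array. Msx1 had a signal of 23.0 in the null and 1581 in the control array, and Msx2 had 14.5 in the null and 63.7 in the control array. Pgr, the gene that carries the Cre, had 2663 in the null and 1891 in the control array, a log2 ratio of 0.49. The 3'/5' signal ratio, a measure of RNA quality that is higher in degraded RNA, was 1.28 in the null and 0.967 in the control array for Gapdh, and 2.33 in the null and 1.80 in the control array for Actb. Its part in the results was not tested.

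Several members were read by more than 1 probe set, which allowed a look at probe noise. Of the 129 probe sets of members, 90 exceeded the floor of each array, and 89 of these had a positive ratio, with a median of 0.67, against 49.3% positive over all 18699 probe sets of that kind. The single negative one was a second probe set of Hmmr, at 34.9 in the null and 36.6 in the control array. Of the 32 member probe sets that reached neither floor, 15 had a positive and 17 a negative ratio, close to an even split. All ratios were positive in 23 of the 24 members with several probe sets above the floor, Hmmr being the exception. The spread of ratios within these 24 members had a median range of 0.30 and reached 1.14 in Hmmr. As a scale for noise, the SD of the log2 ratio of 1 probe set was 0.27, from pairs of probe sets of 4690 genes. The SD among the 56 members was 0.26, and 53 of them lay within 2 such noise SDs of the members' median. Most differences between members are thus within the range of probe noise.

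**Figure D2:**
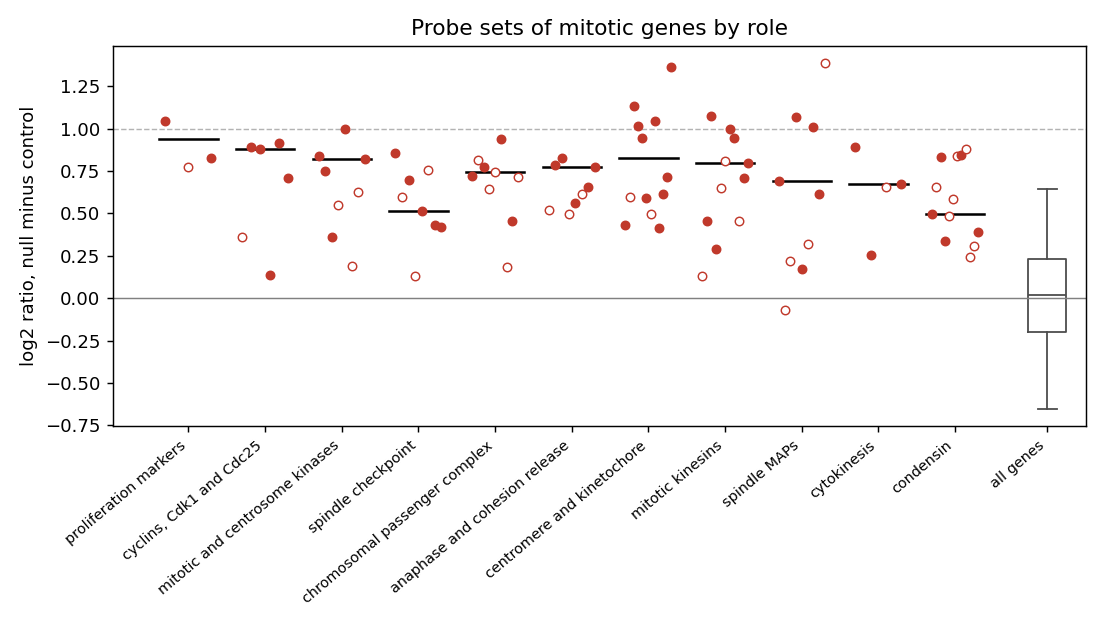
Log2 ratio, null minus control (y axis), of the 90 member probe sets that exceeded the floor of each array, by role. Filled points are the probe set that stands for its gene, open points are further probe sets, black bars are medians over genes, the dashed line marks 2-fold, and the box shows the quartiles and the 5th and 95th percentiles of all genes. All points but 1 lie above 0.

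Among markers and drivers of division, Mki67, which encodes the proliferation antigen Ki-67, had a signal of 1540 in the null and 746 in the control array, 2.06-fold higher. Top2a, the topoisomerase that untangles chromosomes before they separate, had 1828 in the null and 1029 in the control array, and its second probe set above the floor gave a log2 ratio of 0.78 beside 0.83. The drivers of mitotic entry were close to each other. Cdk1, the mitotic kinase itself, had 809 in the null and 494 in the control array, 1.64-fold higher. Its partners Ccna2 and Ccnb2, cyclins A2 and B2, were 1.86-fold and 1.84-fold higher, with Ccna2 at 828 in the null and 446 in the control array. A second probe set of Ccna2 gave a smaller log2 ratio of 0.36. The Cdc25 phosphatases, which activate Cdk1, were apart from each other: Cdc25c had 60.1 in the null and 31.9 in the control array, 1.88-fold higher but just above the floor in control cells, whereas Cdc25b had 152.9 in the null and 139 in the control array, 1.10-fold higher and within the noise of 1 probe set.

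The mitotic kinases had a median log2 ratio of 0.82 over 5 genes. Plk1, the Polo-like kinase of mitotic entry and spindle assembly, had 218 in the null and 109 in the control array, and it stood just inside the 2-fold threshold, with the kinesin gene Kif22 just outside it at 703 in the null and 352 in the control array. Aurka, the spindle pole kinase, had 205 in the null and 115 in the control array, 1.79-fold higher. Plk4, which controls centriole duplication, was 1.77-fold higher, although its 3 probe sets above the floor ranged from 0.19 to 0.82 on the log2 scale. Melk was 1.68-fold higher and the centrosomal kinase gene Nek2 1.28-fold higher.

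Spindle checkpoint genes had the second lowest median of the 11 role groups, 0.51 over 5 genes, narrowly above condensin. At least 1.5-fold higher were 2 of these 5 genes, against 40 of the 56 members and 6.79% of all genes. Bub1, a checkpoint kinase at the kinetochore, had 347 in the null and 191 in the control array, 1.81-fold higher, and Bub1b, which encodes BubR1, had 265 in the null and 164 in the control array, 1.62-fold higher. The other 3 differed less on the probe set that stands for the gene. Bub3, the partner of both Bub proteins, had 1626 in the null and 1141 in the control array. Its other probe sets above the floor gave log2 ratios of 0.76 and 0.13. Mad2l1, the inhibitor of Cdc20, had 724 in the null and 538 in the control array. Ttk, the kinase Mps1, had 186 in the null and 139 in the control array. In the chromosomal passenger complex, which corrects faulty attachments and later acts in cytokinesis, Cdca8 (borealin) was 1.92-fold, Birc5 (survivin) 1.71-fold, the kinase gene Aurkb 1.65-fold and the scaffold gene Incenp 1.37-fold higher. All 9 probe sets of this complex above the floor had positive ratios, against 49.3% of all such probe sets. Those of Incenp ranged from 0.19 to 0.72 on the log2 scale.

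Genes of anaphase onset were spread narrowly, with log2 ratios from 0.56 to 0.83. Cdc20, the activator of the anaphase-promoting complex, had 1380 in the null and 802 in the control array, and Ube2c, the ubiquitin-conjugating enzyme of that complex, had 1080 in the null and 631 in the control array, 1.72-fold and 1.71-fold higher. Another Cdc20 probe set, under the floor in the null array, had the opposite sign at 22.4 in the null and 33.6 in the control array. Espl1, the separase that cuts cohesin, was 1.78-fold higher, its inhibitor Pttg1 (securin) 1.48-fold higher, and Sgol1 (Sgo1 in the annotation), which protects centromeric cohesion, 1.57-fold higher, with 119 in the null and 75.7 in the control array.

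Centromere and kinetochore genes, the largest role group with 10 of the 56 members above the floor, held the highest ratio of all members. At least 2-fold higher were 4 of these 10, against 9 of the 56 members and 1.59% of all genes. Spc25, a subunit of the Ndc80 complex that grips microtubules, had 413 in the null and 160 in the control array, 2.57-fold higher. The other 3 subunits of that complex had smaller ratios, at 1.64-fold for Spc24, 1.53-fold for Nuf2 and 1.33-fold for Ndc80, so the 4 subunits ran from 0.41 to 1.36 on the log2 scale. Cenpe, the kinesin of chromosome congression, had 180 in the null and 82.2 in the control array, a log2 ratio of 1.13, Cenpn, which binds the centromeric nucleosome, had 197 in the null and 95.6 in the control array, 2.06-fold higher, and Cenpf had 356 in the null and 176 in the control array, 2.02-fold higher. The second probe sets of Cenpe and Cenpn gave log2 ratios of 0.60 and 0.49, under 2-fold. Cenph and Cenpk, of the inner kinetochore, were 1.92-fold and 1.51-fold higher, and Cenpa, the centromeric histone H3 variant, was 1.35-fold higher with 418 in the null and 310 in the control array.

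Of the 8 mitotic kinesins, 7 were above the floor. Kif20a, the kinesin of the central spindle, had 197 in the null and 93.7 in the control array, 2.10-fold higher, and Kif22, a chromosome-arm kinesin, gave log2 ratios of 0.65 to 1.00 on 3 probe sets. Kif23, the motor subunit of centralspindlin, had 256 in the null and 133 in the control array, 1.93-fold higher. The chromokinesin gene Kif4 (1.74-fold), the microtubule depolymerase gene Kif2c (1.64-fold), the bipolar spindle motor gene Kif11 (1.37-fold) and Kif20b (1.22-fold) completed the group. A second probe set of Kif11 above the floor gave a log2 ratio of 0.13. Among spindle-associated proteins, Hmmr had 261 in the null and 124 in the control array, 2.10-fold higher, on the probe set with the highest signal, but its other 2 above the floor gave 0.22 and -0.07. Prc1, which bundles the midzone, was 2.01-fold higher at 394 in the null and 196 in the control array, with 0.32 on its second probe set. Tpx2, the activator of Aurora A, was 1.53-fold higher, with a larger log2 ratio of 1.39 on its second probe set. Ckap2 was 1.61-fold and Nusap1 1.13-fold higher.

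For cytokinesis, Anln (anillin), a scaffold of the contractile ring, had 465 in the null and 251 in the control array, 1.85-fold higher. Racgap1, the partner of Kif23 in centralspindlin, was 1.60-fold higher with log2 ratios of 0.68 and 0.66 on its 2 probe sets above the floor, while Ect2, the exchange factor that it recruits, was 1.19-fold higher, with 178 in the null and 149 in the control array. The members of condensin, which compacts chromosomes, had the lowest median, 0.50 over 5 genes. All 12 probe sets of these 5 genes above the floor were positive, against 49.3% of all such probe sets. Across the processing settings this median ran from 0.476 to 0.603, and that of the spindle checkpoint from 0.481 to 0.595. The order of these groups is therefore not settled. The core ATPase genes differed: Smc2 had 924 in the null and 513 in the control array, 1.80-fold higher, with 4 probe sets between 0.58 and 0.88, and Smc4 had 1093 in the null and 833 in the control array, 1.31-fold higher, with 3 probe sets between 0.24 and 0.39. The condensin I subunit genes Ncapg, Ncapd2 and Ncaph were 1.78-fold, 1.41-fold and 1.26-fold higher. Subunit genes of condensin II are not members. Of these, Ncapg2, Ncapd3 and Ncaph2 had log2 ratios of 0.89, 0.13 and -0.06, the probe sets of Ncaph2 running from -0.31 to 0.45. They were chosen for mention after their values were seen.

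Mitotic genes with dim and bright probe sets had similar ratios. Split into 3 classes of signal, the members had a median log2 ratio of 0.80 over 19 genes in the dimmest class, 0.69 over 18 in the middle class and 0.77 over 19 in the brightest.

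**Figure D3:**
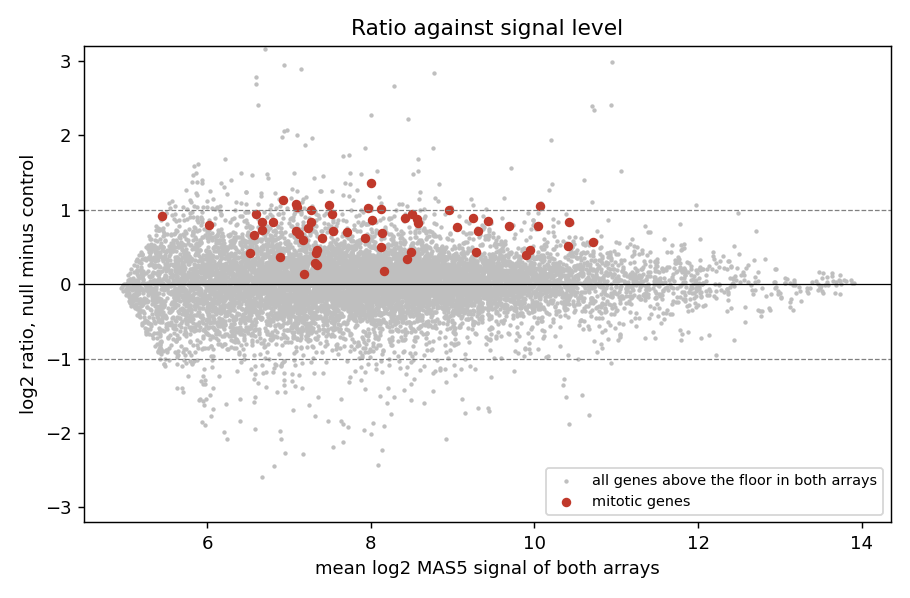
Log2 ratio, null minus control (y axis), against the mean log2 signal of both arrays (x axis) for all genes above the floor in both arrays (grey; 3 lie outside the axis) and the 56 mitotic genes among them (red). Dashed lines mark 2-fold. The red points lie above 0 at all signal levels.

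Mitosis genes outside the 58 were mostly higher too, with more exceptions. Of 77 further genes of the pathway on the array, 73 had at least 1 signal above the floor. Over all genes, 52.3% had a positive ratio, 6.79% were at least 1.5-fold higher, 6.92% were 1.5-fold lower and 1.59% were at least 2-fold higher. The 73 genes had a median log2 ratio of 0.59, with 65 positive and 8 negative. Of them 37 were at least 1.5-fold higher and 0 lower, and 4 were at least 2-fold higher. The highest among those above the floor in both arrays were Cenpi, an inner kinetochore gene, with 142 in the null and 50.8 in the control array, Esco2, the cohesin acetyltransferase, with 94.2 in the null and 36.3 in the control array, and Spag5 (astrin), with 137 in the null and 57.98 in the control array. Mis12, Pbk and Kntc1 followed at 0.97, 0.95 and 0.95. At the low end were Fzr1, which encodes the G1 activator Cdh1 of the anaphase-promoting complex, at -0.38, Fam83d at -0.32, Lin37 at -0.30 and Mad2l1bp at -0.17. Lin37 belongs to MuvB, the complex that represses or, with B-Myb and Foxm1, activates mitotic genes. The values of its other subunits and partners were chosen for mention after they were seen. Lin54, the DNA-binding subunit, had 150.0 in the null and 84.5 in the control array, a log2 ratio of 0.83, and Lin9 had 0.73. Foxm1 had 61.1 in the null and 49.5 in the control array, 0.30, with another probe set at -0.09, and Mybl2 was near the floor at 34.7 in the null and 29.5 in the control array.

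Replication genes of S phase lay near the mitotic genes, while core subunits of the anaphase-promoting complex and of cohesin had smaller ratios. Over 38 replication and S phase genes the median was 0.69, 37 were positive and 26 were at least 1.5-fold higher. Of all genes, 52.3% were positive and 6.79% were at least 1.5-fold higher. Uhrf1, which maintains DNA methylation behind the fork, was 2.17-fold higher, Rrm2, a ribonucleotide reductase subunit, 2.09-fold and the DNA ligase gene Lig1 2.07-fold. The 12 subunits of the anaphase-promoting complex, whose activator and E2 enzyme are members, had a median of 0.10, with 9 of 12 positive and 0 past 1.5-fold in either direction, where the shares over all genes were 6.79% higher and 6.92% lower. Anapc5, Anapc2 and Anapc4 had 0.39, 0.34 and 0.28, and Anapc5 also had a probe set at -0.58. The 10 cohesin genes, whose cleavage Espl1 carries out, had a median of 0.07, with 8 of 10 positive and likewise 0 past 1.5-fold, with Mau2, Smc1a and Pds5b at 0.27, 0.21 and 0.20, the first and second having other probe sets below 0. The G1 list held the D-type cyclins, the kinase genes Cdk2, Cdk4 and Cdk6, CDK inhibitors and pocket proteins. Its median was -0.12 over 15 genes, with 7 positive and 8 negative. That median was 0.02 when all probe sets of a gene were averaged by their median. The largest differences there were those of Cdk2 (0.56), the p107 gene Rbl1 (0.52) and Cdk6 (-0.46). Whether these lists differ from the mitotic genes beyond chance could not be tested with 1 array per genotype.

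**Figure D4:**
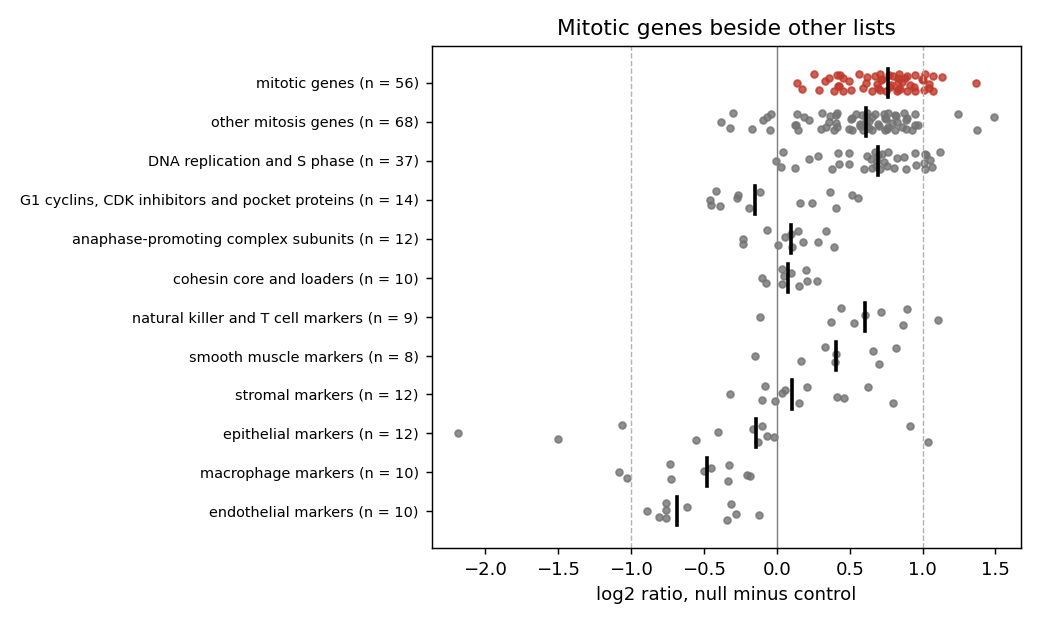
Log2 ratio, null minus control (x axis), of genes above the floor in both arrays in the mitotic list (red) and in other lists (grey), with black bars at the medians and dashed lines at 2-fold. Mitotic, further mitosis and replication genes lie mostly to the right of 0, whereas G1 genes, anaphase-promoting complex subunits and cohesin genes lie around it.

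Markers of the cell types in the preparation also differed between the arrays. As a scale for the counts of positive markers, 52.3% of all genes had a positive ratio. All 12 stromal markers were above the floor, with a summed signal of 63701 in the null and 61365 in the control array, a median log2 ratio of 0.10, and 8 of 12 positive. Hoxa11, Hand2 and Col1a1 had 0.80, 0.63 and 0.46, another probe set of Hand2 had -0.01, and Vim had the lowest ratio at -0.32. All 12 epithelial markers were above the floor as well, so epithelial RNA was present in both pools. Their summed signal was 10369 in the null and 13992 in the control array, with 2 of 12 positive and a median of -0.14. Foxa2, Prom1 and Krt18 had -2.18, -1.50 and -1.06, and the 2 positive markers, Krt19 and Cldn7, had 1.04 and 0.91. Krt7 and Krt8 had -0.56 and -0.40, whereas Epcam, Cdh1, Cldn3, Cldn4 and Esrp1 lay between -0.16 and -0.02. Epcam and Cldn3 also had probe sets at 0.47 and 0.31. Endothelial markers had 3209 in the null and 4926 in the control array with 0 of 10 positive, among them Emcn, Pecam1 and Tek at -0.89, -0.80 and -0.76. Macrophage markers had 5088 in the null and 7394 in the control array with 0 of 10 positive, Fcgr3, Mrc1 and Adgre1 being at -1.08, -1.02 and -0.73.

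Most natural killer and T cell markers were higher in the null array. Of the 10 with at least 1 signal above the floor, 9 had a positive ratio. The summed signal of these 10 was 3357 in the null and 1966 in the control array. Cd3d, Gzma and Gzmb had 1.11, 0.89 and 0.87, while Cd3g had -0.12 and Cd3e reached neither floor. Smooth muscle markers had 14771 in the null and 11054 in the control array, with 7 of 8 positive and Synpo2, Cnn1 and Actg2 at 0.82, 0.70 and 0.66, Synpo2 having another probe set just below 0. Of 9 blastocyst and trophoblast markers, 5 reached neither floor, Pou5f1, Nanog, Sox2, Cdx2 and Tfap2c, and have no usable ratio. The summed signal of all 9, signals under the floor included, was 1943 in the null and 2377 in the control array. Without Krt8, which is also an epithelial marker, that of the other 8 was 240 in the null and 122 in the control array. Among these 8, Eomes, with 113 in the null and 71.6 in the control array, and Gata3 had the largest signals. Eomes and Krt8 were above both floors, at 0.66 and -0.40, and Eomes had another probe set at 0.05. Gata3, with 59.2 in the null and 18.2 in the control array, and Elf5, with 37.2 in the null and 10.7 in the control array, were above the floor in the null array alone. Vim, Cd3g, Cd3e and the epithelial markers other than Foxa2, Prom1 and Krt18 were chosen for mention after their values were seen. So were the single blastocyst markers without a ratio above both floors and the sum without Krt8. The part of these cell types in the ratios of the mitotic genes was not tested.

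Many mitotic genes share a promoter design known as the cell cycle genes homology region (CHR), a short element near the start that MuvB binds, placed after boxes bound by NF-Y. RefSeq promoter windows of the GRCm38.p6 build, 250 bases before to 50 after a start, were found for 49 of the 57 members, 54 windows in all. The main CHR form TTTGAA, on either strand, was found within 50 bases of the start in 32 of the 54 windows (59.3%), against 3.28% of the 16693 windows of protein-coding genes on the array. It was there in 24 of 66 windows of the further mitosis genes (36.4%), in 2 of 36 of the replication genes (5.56%), in 1 of 8 of the cohesin genes, in 0 of 13 of the anaphase-promoting complex and in 0 of 16 of the G1 genes. The NF-Y box CCAAT, on either strand within 150 bases before the start, was in 35 of the 54 member windows (64.8%), against 26.1% of all windows. It was in 34 of 66 windows of the further mitosis genes (51.5%) and 19 of 36 of the replication genes (52.8%). Cohesin genes had it in 4 of 8 windows, the anaphase-promoting complex in 4 of 13 and G1 genes in 3 of 16. Both motifs together were in 27 of the 54, against 1.10% of all windows. They were in 17 of 66 windows of the further mitosis genes (25.8%), 2 of 36 replication and 1 of 8 cohesin windows. No window of the anaphase-promoting complex or G1 genes had both. In the whole window, the other CHR form TTTAAA, which reads alike on both strands, was in 9 of 54 (16.7%), against 10.2%.

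The sequences below are the 120 bases before the start, 5′ to 3′ on the gene's strand, with CHR elements and NF-Y boxes in capitals, where TTCAAA and ATTGG are the reverse complements of TTTGAA and CCAAT. Of the 12 members whose 120 bases hold both TTTGAA and CCAAT, the 6 with the highest log2 ratios are shown, followed by Cdc25b, the member with the lowest ratio, in whose stretch no CHR element was found. They lie at chr8:116921620-116921739 (plus strand, Cenpn), chr7:80294356-80294475 (plus, Prc1), chr7:127042421-127042540 (minus, Kif22), chr15:102296173-102296292 (plus, Espl1), chr11:99024190-99024309 (minus, Top2a), chr4:118437344-118437463 (minus, Cdc20) and chr2:131186828-131186947 (plus, Cdc25b).
Cenpn: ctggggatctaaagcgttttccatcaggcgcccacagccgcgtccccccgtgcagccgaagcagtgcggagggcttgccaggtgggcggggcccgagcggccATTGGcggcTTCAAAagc
Prc1: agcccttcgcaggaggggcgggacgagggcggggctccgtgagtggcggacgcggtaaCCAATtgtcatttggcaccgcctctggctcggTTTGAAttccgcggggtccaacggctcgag
Kif22: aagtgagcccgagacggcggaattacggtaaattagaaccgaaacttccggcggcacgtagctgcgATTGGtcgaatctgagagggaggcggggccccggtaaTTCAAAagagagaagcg
Espl1: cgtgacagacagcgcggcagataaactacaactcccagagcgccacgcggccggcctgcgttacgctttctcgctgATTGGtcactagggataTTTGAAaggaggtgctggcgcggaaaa
Top2a: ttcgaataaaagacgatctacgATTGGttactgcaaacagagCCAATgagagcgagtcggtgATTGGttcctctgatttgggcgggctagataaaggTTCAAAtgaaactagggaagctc
Cdc20: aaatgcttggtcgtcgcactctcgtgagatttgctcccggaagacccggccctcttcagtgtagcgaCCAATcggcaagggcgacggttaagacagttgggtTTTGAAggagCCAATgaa
Cdc25b: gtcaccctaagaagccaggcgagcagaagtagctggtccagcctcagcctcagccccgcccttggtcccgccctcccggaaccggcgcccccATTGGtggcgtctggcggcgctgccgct
In 6 of these the CHR element lies in the last bases before the start, and a single NF-Y box precedes it in 4 of them, whereas Top2a has 3 boxes and Cdc20 has 1 box before and 1 after its element. Of the 48 TTTGAA matches in member windows, counted per window although windows of 1 gene overlap, 21 lie wholly after the start, Spc25, Plk1 and Ccnb2 being examples, and these are not printed. A match is a description of the sequence and not evidence of binding in these cells.

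Members with and without the element overlapped widely in their ratios. The 29 members with TTTGAA within 50 bases of the start and above the floor had a median log2 ratio of 0.83, from 0.25 for Ect2 to 1.36 for Spc25. The 19 without it had a median of 0.65, from 0.14 for Cdc25b to 1.13 for Cenpe. The members were measured on the same 2 arrays and are not independent, so this is a description without a test.

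**Figure D5:**
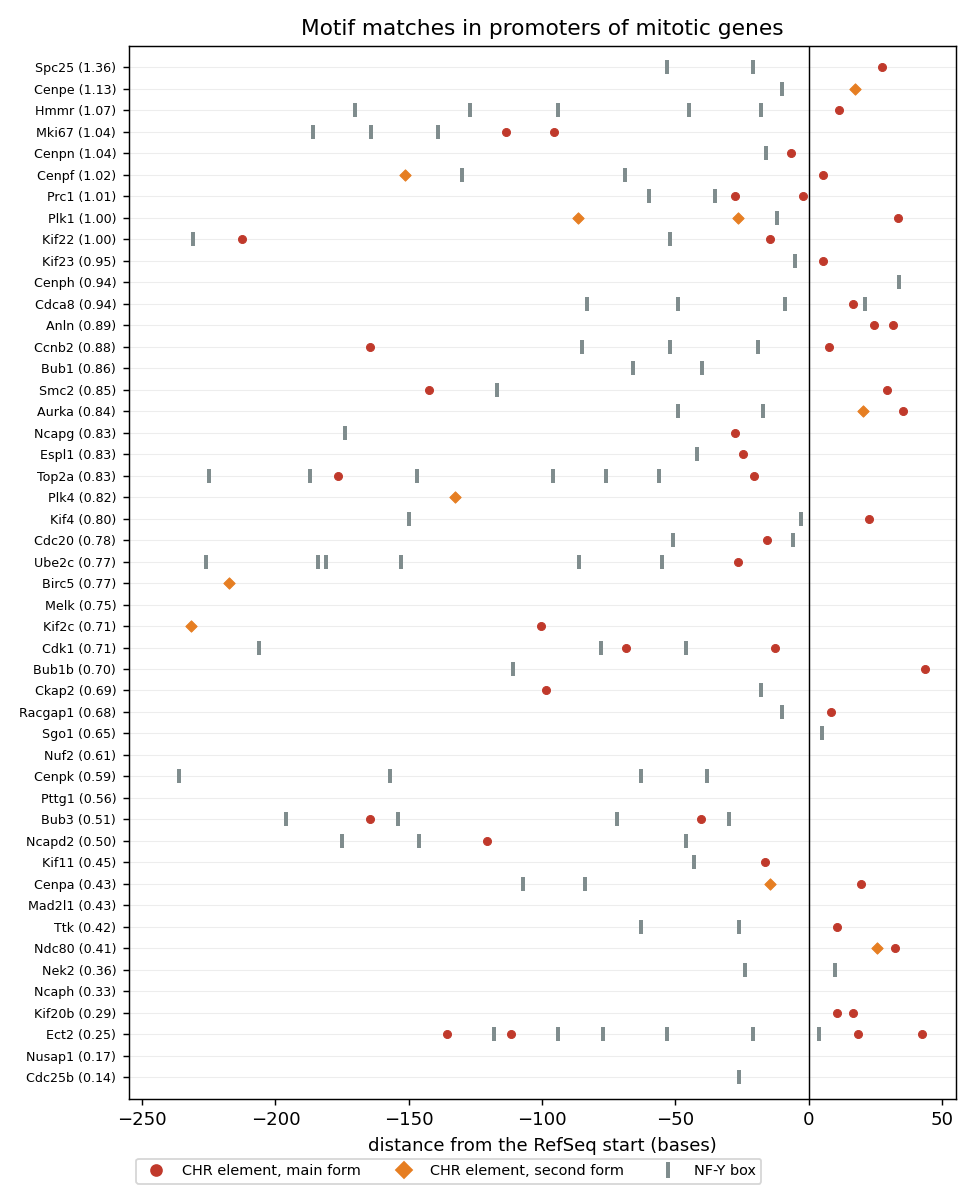
Matches to the main CHR form (red circles), its second form (orange diamonds) and the NF-Y box (grey bars) by distance in bases from the RefSeq start (x axis) in the 48 members with a promoter window and a usable ratio, ordered by log2 ratio (in brackets, null minus control). Matches of all windows of a gene are overlaid on 1 line. Red circles gather around the start, and NF-Y boxes lie mostly before it.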

How the data were processed

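Uterine stromal cell RNA of each genotype was pooled and hybridized to 1 array. The authors deposited a linear intensity for each probe set and array. The submitters' processing notes name MAS5 and Affymetrix Expression Console 1 as the tools. With the highest and lowest 2% removed, the mean deposited intensity was 150.0 in both arrays, so the arrays share a scale. Genome build and detection calls are not given in the sources used here. Of 45101 probe sets, 34945 had 1 gene symbol in the platform annotation, 932 several and 9160 none. Intensities were turned into log2 values, and the probe set with the highest average of both log2 signals stood for a gene. MAS5 subtracts mismatch signal, so ratios of dim probe sets are unstable, and signals under the 50th percentile of an array were raised to it. Genes were described by size at 1.5-fold and 2-fold, with no test. All 58 members may be named. Of the further mitosis genes, the 6 highest and 4 lowest ratios were named, and of each other list the 3 largest, all above the floor in both arrays. Some others, marked in the text, were chosen after their values were seen. Members and lists were chosen with earlier results of these data known. Scripts ran in Python 3.11.15 with pandas 2.3.3, SciPy 1.17.1 and statsmodels 0.14.6, and were tested on simulated data. The number of arrays limits the precision.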

Additional observations from a re-analysis of the deposited data

How the results depend on the processing

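The 8 alternatives were no floor, floors at the 35th and 65th percentile, the median of all probe sets of a gene, leaving out _x_at and _s_at probe sets, centring on the median gene, quantile normalization and a lowess correction over signal level. All member ratios were positive in each of them. The members' median log2 ratio lay between 0.70 and 0.77, the count past 1.5-fold between 37 and 41 and the count past 2-fold between 6 and 9, with 6 after centring and after lowess. The share of all genes at least 2-fold higher ran from 1.00% with the 65th percentile floor to 9.88% with no floor. With no floor, 9 of 57 members were at least 2-fold higher. At least 1.5-fold higher were then 41 of 57 members and 3002 of 18193 genes. No member was 1.5-fold lower in any setting, against 2967 of 18193 genes with no floor. Of 446 single member ratios, 438 moved by less than the SD of probe noise. The other 8 kept their sign. With the median over probe sets these were Hmmr (0.22), Bub1 (0.57), Prc1 (0.66), Cenpn (0.77), Tpx2 (1.00) and Sgo1 (1.08). Prc1 was at 0.32 without _x_at and _s_at probe sets, and Kif4 at 0.07 with the 65th percentile floor, where its control signal was raised to the floor. The median of the G1 list ranged from -0.15 to 0.02 and turned sign with the median of all probe sets of a gene. No paired analysis was possible because each genotype has 1 array.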

Other observations

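The E2F words TTCCCGC and TTGGCGC, known from promoters of G1/S genes, were looked for on either strand of the same RefSeq promoter windows. They were in 12 of 54 windows of the mitotic genes (22.2%) and in 19 of 36 windows of the replication and S phase genes (52.8%), against 10.2% of all windows of protein-coding genes on the array. Cohesin genes had them in 4 of 8 windows, further mitosis genes in 17 of 66 (25.8%), G1 genes in 3 of 16 and the anaphase-promoting complex in 1 of 13. A longer form of the words, with 1 more T in front, was in 3 of 54 windows of the mitotic genes (5.56%) and in 11 of 36 of the replication genes (30.6%), against 2.41% of all windows. This form was in 3 of 8 cohesin windows, 8 of 66 of the further mitosis genes (12.1%), 2 of 16 G1 windows and 0 of 13 of the anaphase-promoting complex. The main CHR form, over the whole window, was in 37 of 54 windows of the mitotic genes (68.5%) and in 4 of 36 of the replication genes (11.1%), against 13.0% of all. The median log2 ratio, null minus control, was 0.76 for the mitotic genes and 0.69 for the replication genes. This search was added after the ratios had been seen.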
